A study of Mus musculus with 3 samples.

Results

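The insulin-like growth factor (IGF) axis was described here through 10 genes: the ligands Igf1 and Igf2, the receptors Igf1r and Igf2r, and the binding proteins Igfbp2, Igfbp3, Igfbp4, Igfbp5, Igfbp6 and Igfbp7. They were chosen by name, with earlier results of these data already known, so counts set beside all genes are descriptive. The annotation of the array named exactly 1 of them for 182 of the 318760 probesets that carried a single gene symbol, and all 10 genes had at least 8 probesets. A probeset is a small group of array probes that report a short stretch of a transcript. The samples were bone marrow cells of C57BL/6 mice that carried GFP, freshly isolated and sorted by flow cytometry. In these mice the nestin promoter drives GFP, so the sorted cells are those with reporter signal, not those in which nestin transcript was measured. The 3 arrays form 1 group without a control, and the sources used here give no age or further allele of the mice. Nothing in the labels says that the arrays came from separate mice or sorts. The p-values therefore reflect the spread among 3 arrays, and this spread may be technical.

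The 2 ligands IGF-1 and IGF-2 act through the tyrosine kinase IGF-1 receptor, whereas the IGF-2 receptor, which also carries mannose 6-phosphate-tagged enzymes to lysosomes, removes IGF-2 from the cell surface. Binding proteins hold the ligands in extracellular fluid and matrix, and proteases that cut them set the ligands free. In bone and marrow, stromal and osteoblastic cells make IGFs and binding proteins. Growth hormone induces Igf1 through the growth hormone receptor, Jak2 and Stat5.

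All levels are log2 values, and a gene's value on an array is the median of its probesets. With no second group, each gene was set against a threshold taken from the same array. This threshold was the 95th percentile of 346 olfactory, vomeronasal and bitter taste receptor genes, which stood at 5.40, 5.57 and 5.59 on arrays 1, 2 and 3. A gene was called above background at an adjusted p below 0.05 in limma's one-sided test. A stricter threshold came from 31 hepatocyte, photoreceptor and spermatid genes, whose 95th percentile was 7.24, 7.05 and 6.92. With so few genes, this percentile rests on the few highest of them. A gene's margin is its mean distance above the threshold. Since probes differ in affinity, no ranking between genes is read from the values.

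The sorted cells carried a clear IGF-1 and binding protein signal. Of the 10 genes, 8 lay above the chemosensory background, where 52.2% of all 18865 genes did, and 6 lay above the other-tissue background, where 15.9% of all genes did. The same count of 8 were above the chemosensory threshold on every array, as were 56.6% of all genes. The 6 above both backgrounds were Igf1, Igf2r, Igfbp3, Igfbp4, Igfbp5 and Igfbp7. Igf2 and Igf1r passed the chemosensory background only, and Igfbp2 and Igfbp6 passed neither. The median margin of the 10 genes was 2.62, compared with 0.55 over all genes tested.

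**Figure D1:**
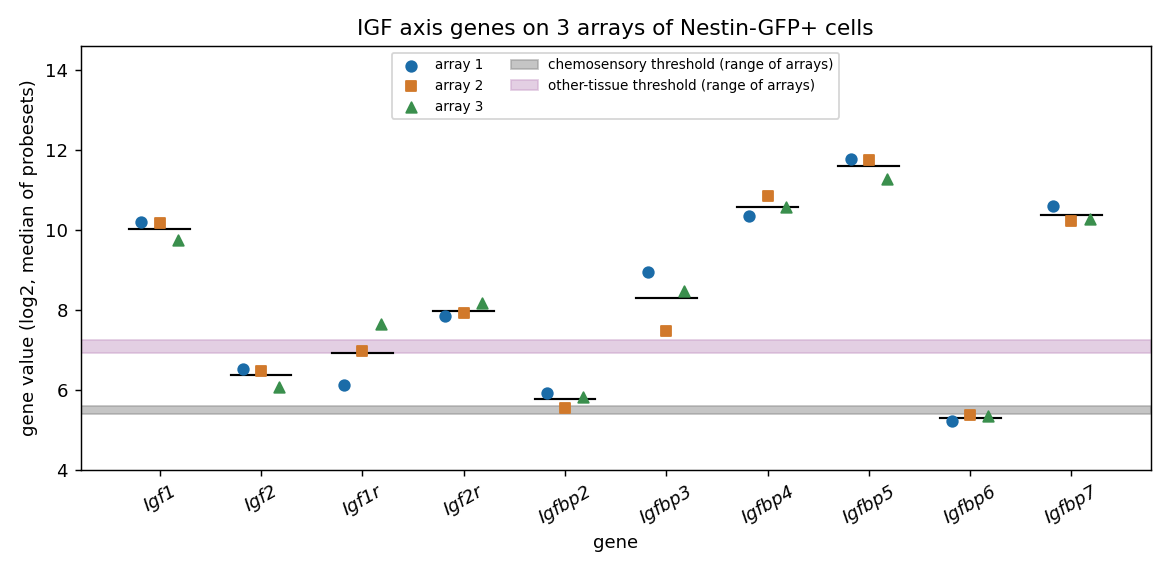
Gene values (log2, median of a gene's probesets) of the 10 IGF axis genes on 3 arrays, with the mean as a bar and the range of each threshold over the arrays as a band. Igf1, Igfbp4, Igfbp5 and Igfbp7 sit far above both bands on every array, while Igfbp6 lies at 5.21 to 5.37, below the chemosensory threshold of its array each time.

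Among the ligands, Igf1 was strong. Igf1 encodes the growth factor through which much of the action of growth hormone is exerted, and it stood at 10.19, 10.16 and 9.74 on arrays 1, 2 and 3. All values lay more than 4 above the threshold, and array 3 was the lowest. The mean was 10.03 ± 0.25 (SD, n = 3) with a margin of 4.51 (limma, adjusted p = 2.06e-06). Above the stricter threshold its margin was 2.96 (limma, adjusted p = 1.9e-05).

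Igf2, the imprinted ligand known chiefly for growth before birth, gave 6.53, 6.47 and 6.07. All 3 arrays were above the chemosensory threshold and below the other-tissue threshold. The margin of Igf2 over the chemosensory threshold was 0.84 (mean 6.36 ± 0.25, SD, n = 3; limma, adjusted p = 0.00402), and it was -0.71 against the other-tissue threshold (limma, adjusted p = 1.0). With the 99th percentile of the chemosensory genes as threshold Igf2 was 0.26 below it, a margin of -0.26, and with genes of any probeset number kept its call was lost (limma, adjusted p = 0.124). The antisense transcript of the locus, Igf2os, had 6.05, 5.92 and 5.91 over 15 probesets and also passed the chemosensory background (limma, adjusted p = 0.0362). Whether probesets of Igf2 and of its antisense transcript share sequence was not tested.

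H19 is the noncoding RNA gene that neighbours Igf2 and is imprinted in the opposite way. H19 was at 5.34, 5.33 and 5.99 and did not pass (limma, adjusted p = 0.677). Among the RNA-binding proteins named for the Igf2 transcript, Igf2bp2 stood at 6.23 ± 0.07 (SD, n = 3; limma, adjusted p = 0.00407). Its call was lost with either stricter threshold, with the 75th percentile over probesets and with genes of any probeset number kept. Igf2bp1 had 4.63 ± 0.23 and Igf2bp3 5.70 ± 0.24, and neither was called. At the 90th percentile threshold H19 (limma, adjusted p = 0.0483) and Igf2bp3 (limma, adjusted p = 0.014) were called.

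Both receptors were called. Igf1r, the signalling receptor of both ligands, stood at 6.13, 6.98 and 7.65 on arrays 1, 2 and 3. Array 1 was the lowest, and the spread between arrays was 1.52. Its mean was 6.92 ± 0.76 (SD, n = 3) and its margin 1.40 (limma, adjusted p = 0.00159). The call held without each array in turn, with a margin from 1.07 without array 3 to 1.73 without array 1, and was lost at the other-tissue threshold (margin -0.15) and at the 99th percentile (limma, adjusted p = 0.619).

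Igf2r, the clearance and lysosomal sorting receptor, had 7.84, 7.91 and 8.17. The arrays lay close together and all were above both thresholds. The mean was 7.97 ± 0.18 (SD, n = 3), with a margin of 2.45 over the chemosensory threshold (limma, adjusted p = 1.05e-05) and 0.90 over the other-tissue threshold (limma, adjusted p = 0.00859). Among the insulin family receptors, Insr stood at 7.83, 7.81 and 8.76 and passed both backgrounds (limma, adjusted p = 3.09e-05 for the first). The orphan receptor gene Insrr had 5.45 ± 0.14 and was not called.

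The binding proteins fell into called and uncalled genes. Igfbp5, a binding protein abundant in bone matrix, gave 11.77, 11.75 and 11.26. All arrays were more than 4 above both thresholds, and the margin over the chemosensory threshold was 6.07 (mean 11.59 ± 0.29, SD, n = 3; limma, adjusted p = 1.32e-06). Igfbp4, known as an inhibitor of IGF action that osteoblasts secrete, had 10.35, 10.84 and 10.56. Its margin was 5.06 (mean 10.58 ± 0.25, SD, n = 3; limma, adjusted p = 1.32e-06). Igfbp7, a related secreted protein with low affinity for IGFs, which endothelium and stroma both make, had 10.59, 10.22 and 10.28. Its margin was 4.84 (mean 10.36 ± 0.20, SD, n = 3; limma, adjusted p = 1.67e-06).

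Igfbp3, the main carrier of IGFs in serum, was called with a wider spread. It gave 8.95, 7.47 and 8.48 on arrays 1, 2 and 3, so array 2 was the lowest, yet every array was above both thresholds. The mean was 8.30 ± 0.76 (SD, n = 3), with a margin of 2.78 over the chemosensory threshold (limma, adjusted p = 0.000108) and 1.23 over the other-tissue threshold (limma, adjusted p = 0.0107).

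Igfbp2, a binding protein with an affinity for IGF-2, had 5.93, 5.55 and 5.82. Array 2 was just under its threshold, and the gene was not called (margin 0.25; limma, adjusted p = 0.19). It was called when the mean over probesets replaced the median (limma, adjusted p = 0.0135) and at the 90th percentile threshold (limma, adjusted p = 0.00834). Igfbp6, which prefers IGF-2, had 5.21, 5.37 and 5.34, all below the threshold, with a margin of -0.22 (limma, adjusted p = 1.0). A missing call does not show that a transcript was absent. Igfbp1, the liver binding protein outside the 10 genes, had 5.37 ± 0.20 (SD, n = 3) and was not called. Nor were Igfals, the acid-labile subunit of the circulating complex, with 5.12, 5.64 and 6.88, and Igfbpl1, with 5.51 ± 0.56. Igfals was called with the mean over probesets (limma, adjusted p = 0.00126), with their 75th percentile (limma, adjusted p = 0.0458) and at the 90th percentile threshold (limma, adjusted p = 0.0402).

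Binding protein genes that lie next to each other in the genome gave opposite calls. In the RefSeq annotation Igfbp2 and Igfbp5 are neighbouring protein-coding genes on chromosome 1, and so are Igfbp1 and Igfbp3 on chromosome 11. In each pair 1 gene was called above both backgrounds, Igfbp5 and Igfbp3, and the other above neither. The promoters of both pairs are shown so that the start regions of a called gene and its uncalled neighbour can be set side by side. They are RefSeq sequences of GRCm38.p6 from 250 bases before to 50 bases after the start, at chr1:72824230-72824529 on the plus strand for Igfbp2, chr1:72874816-72875115 on the minus strand for Igfbp5, chr11:7197537-7197836 on the plus strand for Igfbp1 and chr11:7213874-7214173 on the minus strand for Igfbp3. Igfbp2 has 2 starts in the table, of which the first is shown. Capitals mark GC boxes.
Igfbp2: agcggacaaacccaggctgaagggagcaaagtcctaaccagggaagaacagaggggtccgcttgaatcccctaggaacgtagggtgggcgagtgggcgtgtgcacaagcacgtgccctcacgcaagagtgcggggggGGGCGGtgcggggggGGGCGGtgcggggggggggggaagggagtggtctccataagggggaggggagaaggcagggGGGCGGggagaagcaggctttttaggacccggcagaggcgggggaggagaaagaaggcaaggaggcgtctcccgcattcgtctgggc
Igfbp5: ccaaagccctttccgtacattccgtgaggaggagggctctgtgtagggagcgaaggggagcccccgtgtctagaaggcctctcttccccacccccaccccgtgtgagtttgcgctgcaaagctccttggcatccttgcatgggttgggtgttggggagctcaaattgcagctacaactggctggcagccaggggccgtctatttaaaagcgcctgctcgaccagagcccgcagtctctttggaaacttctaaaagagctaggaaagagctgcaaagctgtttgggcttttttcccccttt
Igfbp1: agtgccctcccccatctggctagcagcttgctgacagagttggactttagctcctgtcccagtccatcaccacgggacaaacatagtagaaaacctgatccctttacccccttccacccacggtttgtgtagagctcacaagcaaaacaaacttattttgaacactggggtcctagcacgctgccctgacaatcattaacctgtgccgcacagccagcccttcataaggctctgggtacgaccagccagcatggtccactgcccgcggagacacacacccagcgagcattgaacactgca
Igfbp3: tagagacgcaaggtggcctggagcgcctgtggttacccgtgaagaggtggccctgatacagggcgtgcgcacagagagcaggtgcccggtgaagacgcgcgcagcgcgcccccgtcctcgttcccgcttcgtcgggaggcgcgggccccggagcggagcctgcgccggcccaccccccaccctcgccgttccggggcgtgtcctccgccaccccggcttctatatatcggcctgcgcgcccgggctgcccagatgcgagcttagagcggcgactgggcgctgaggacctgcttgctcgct
The 3 motifs searched, on both strands, were the GC box GGGCGG, the TATA box core TATAAA and the CCAAT box CCAAT. They do not contain one another. The window of the first Igfbp2 start held 3 GC boxes. That of its second start, at chr1:72825137-72825436, held 0 matches to any of the 3 motifs, as did the other windows printed here. Among all 32851 RefSeq promoter windows of 300 bases, 35.7% held the GC box, 13.6% the TATA box core and 37.4% the CCAAT box. The G and C content was 67.0% at the first and 57.3% at the second start of Igfbp2, 56.3% for Igfbp5, 54.3% for Igfbp1 and 71.7% for Igfbp3. Matches and base content describe these windows only.

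Single probesets showed how evenly each gene was covered by signal. A probeset was called when it lay above the 95th percentile of 3897 chemosensory receptor probesets, which stood at 6.95, 7.14 and 6.95 on arrays 1, 2 and 3, in limma's one-sided test over all 318760 probesets. Of the 182 probesets of the 10 genes, 84 were called, where 21.4% of all probesets were. The count was 68 to 77 when 1 array was left out, for which the share over all probesets is not given here. Probesets of a gene report the same transcripts and are not replicates.

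For Igfbp5 13 of 13 probesets were called and for Igfbp7 9 of 9, with probeset means from 10.08 to 12.81 for Igfbp5 and from 7.85 to 12.14 for Igfbp7. Igfbp4 had 7 of 9, and the other 2 of its probesets were near 6, while its highest reached 12.94 on average. Igf1 had 12 of 16, with means from 2.44 to 12.60. In these 4 genes most of the stretches that the array samples gave a signal.

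Igf2r had 23 of 52 called, Igfbp3 5 of 11, Igf1r 9 of 32 and Igf2 5 of 23. These shares were 44.2%, 45.5%, 28.1% and 21.7%, where 21.4% of all probesets were called. The share of Igf2 was thus near that of all probesets. In the uncalled genes Igfbp2 had 0 of 9 in the limma test (1 when p was left unadjusted, at 0.05), with 1 probeset above the threshold on every array, and Igfbp6 had 1 of 8. The exception in Igfbp6 was probeset 5576857, with 8.16, 8.41 and 8.16 on arrays 1, 2 and 3 (limma, adjusted p = 0.00678). At the 99th percentile of the chemosensory probesets 40 of the 182 were called, of which 12 belonged to Igfbp5, 7 to Igf1, 6 to Igfbp4, 5 to Igfbp7 and 4 to Igf1r. The share over all probesets at this threshold is not given here, so the 40 cannot be set against a background share.

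**Figure D2:**
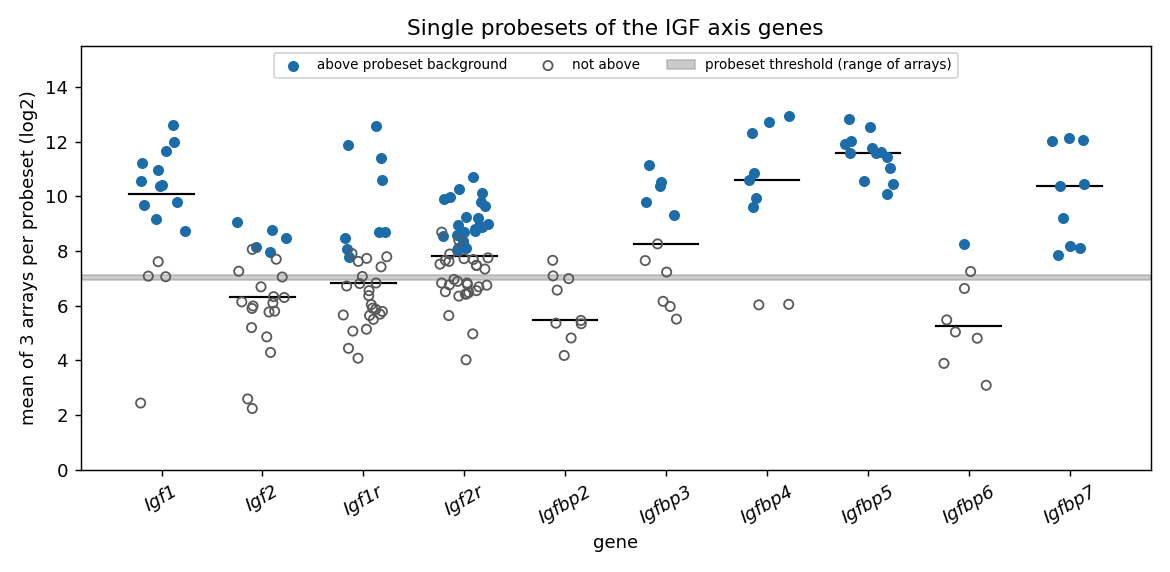
Mean over 3 arrays (log2) of each of the 182 probesets of the IGF axis genes. Filled points were above the probeset background, open points were not, the bar is the median over a gene's probesets, and the band is the range of the probeset threshold. The points of Igfbp5 and Igfbp7 are all filled, whereas Igf1r has a few very high points, up to 12.59, above many open ones.

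The probesets of Igf1r ranged widely in level. Its highest probeset gave 12.52, 12.84 and 12.40, and a second one 11.66, 12.09 and 11.87. Another gave 11.28, 11.62 and 11.34. These 3 probesets varied by less than 0.5 over the arrays. The next highest, with 11.13, 10.66 and 9.96, varied by 1.17 and was lowest on array 3. Among the 9 called probesets the spread reached 1.88, with a median of 0.52. Array 1 gave the lowest value for 20 of the 32 probesets, array 2 for 7 and array 3 for 5. The spread of 1.52 in the gene value was 0.89 with the mean over probesets, 0.93 with their 75th percentile and 1.05 over the called probesets. The order of the arrays also changed. Over the called probesets the medians were 8.79, 9.76 and 8.71, so array 3 was lowest and array 2 highest. Of these 9 probesets 4 were lowest on array 1, 2 on array 2 and 3 on array 3.

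For Igfbp3 the low value on array 2 rested on the probesets in the middle of its range. With 11 probesets the median is close to that of probeset 5567121, which had 8.95, 7.47 and 8.35. Array 2 was lowest for 4 of the 11 probesets and array 3 for 6. The highest probeset of Igfbp3 gave 11.29, 11.37 and 10.82. With the mean over probesets the spread of the gene was 0.44 in place of 1.48.

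**Figure D3:**
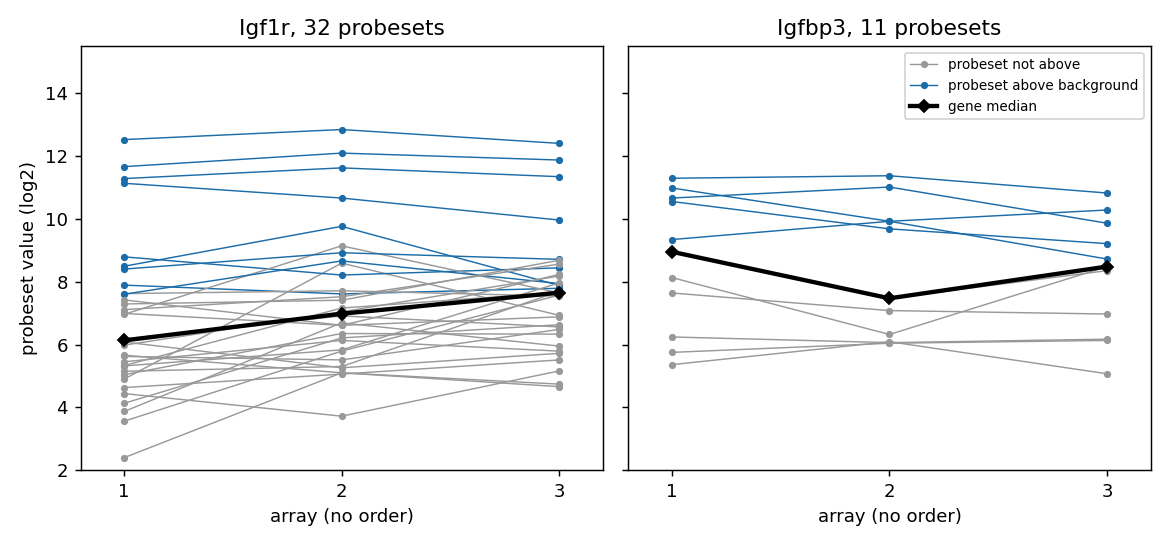
Values (log2) of each probeset of Igf1r and Igfbp3 on the 3 arrays, with called probesets in blue, the others in grey and the gene median in black; lines join the values of 1 probeset and the arrays have no order. The gene median of Igf1r is lowest on array 1, at 6.13, and that of Igfbp3 on array 2, at 7.47; a call depends in part on the spread over the arrays, so spreads of blue and grey lines are not compared.

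With the median over probesets, the spreads of the other 8 genes over the arrays lay between 0.16 for Igfbp6 and 0.51 for Igfbp5. Other summaries changed this order: with the 75th percentile the spread was 1.02 for Igf2 and 1.07 for Igfbp3, and with the mean it was 0.57 for Igfbp5. With the median over probesets again, the median over all 10 genes was 0.45, compared with 0.54 over all 9847 called genes. Among called genes 16.9% had a spread above 1, and 4.62% had one as wide as that of Igf1r or wider. For Igfbp3 this share was 5.16%. Igfbp5 and Igf1 were both lowest on array 3, and in Igfbp5 12 of 13 probesets were lowest there, in Igf1 11 of 16.

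Marker gene lists of several cell types were used to describe the sorted material. All 12 perivascular stroma markers passed both backgrounds, with Cxcl12, the chemokine that retains stem cells, at 11.75 ± 0.14 (SD, n = 3) and the cadherin gene Cdh11 at 11.63 ± 0.17. Nes itself was not called (limma, adjusted p = 0.631). At the chemosensory threshold, where 52.2% of all genes were called, osteoblast markers were called in 10 of 10 cases, smooth muscle and pericyte markers in 10 of 12, endothelial markers in 12 of 15 and neutrophil markers in 6 of 8. Leukocyte markers were called in 3 of 9 cases, erythroid markers in 3 of 7, macrophage markers in 2 of 11 and hepatocyte markers, which also served in the other-tissue threshold, in 1 of 10. At the other-tissue threshold, where 15.9% of all genes were called, the counts were 8 of 10 for osteoblast, 2 of 12 for smooth muscle and pericyte, and 2 of 8 for neutrophil markers. There 1 of 9 leukocyte and 1 of 7 erythroid markers passed, and limma called 0 of 15 endothelial, 0 of 11 macrophage and 0 of 10 hepatocyte markers. At an unadjusted p below 0.05 these last 3 counts were 5, 0 and 0. No tested marker was at 0 on any array. Most of these lists hold genes that more than 1 cell type can express, and in bulk samples fewer cells of a type and less RNA per cell cannot be told apart.

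Of the 15 endothelial markers 14 were lowest on array 2, with list medians of 7.05, 5.98 and 7.61 on arrays 1, 2 and 3. On the linear scale their values summed to 3242, 1036 and 4080. The VE-cadherin gene Cdh5 had 9.14, 6.05 and 9.58. Endomucin (Emcn) had 8.50, 6.75 and 9.16 and the scavenger receptor gene Stab2 8.19, 5.88 and 9.55. Array 2 was also the lowest for 7 of 10 osteoblast markers. The linear sums of the erythroid markers were 1718, 590 and 1803, to which Hbb-b1, with 10.49, 8.33 and 10.56, contributed most. The erythroid list did not follow that gene. Of its 7 markers 4 were lowest on array 1 and 2 on array 2, and the list medians were 5.63, 5.68 and 5.99. Among the IGF genes Igfbp2, Igfbp3 and Igfbp7 had their lowest gene value on array 2, Igfbp7 by a small step with 10.22 against 10.28. Single probesets were mixed, with 4 of 9 in Igfbp7 lowest on array 2 and 4 on array 3. The gene values of Igf1, Igf2, Igf1r, Igf2r, Igfbp4, Igfbp5 and Igfbp6 were not lowest on array 2. The part of endothelial or other cells in the values of Igfbp3, Igfbp7 and Igfbp2 was not tested, and without array 2 Igfbp3 had a margin of 3.22 and Igfbp7 one of 4.94.

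Macrophage markers, which can accompany Igf1 because macrophages also make it, had medians of 5.60, 5.10 and 5.53. Their linear sums were 744, 528 and 1209. Array 1 was the lowest for 3 of the 11 macrophage markers, array 2 for 3 and array 3 for 5. The mannose receptor gene Mrc1 had 8.39, 4.44 and 9.15 and was not called (limma, adjusted p = 0.0594). It had the largest value of the list on arrays 1 and 3, so the linear sums follow it closely. The complement gene C1qb had 6.03, 6.56 and 6.74, and the lysozyme gene Lyz2 5.93, 6.72 and 8.03. C1qb and Lyz2 were the only macrophage markers called. The part of macrophages in the value of Igf1 was not tested. For perivascular stroma markers the linear sums were 21815, 22164 and 20280, which is a narrow range. Osteoblast markers summed to 10627, 8616 and 8736.

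Other genes of the pathway were mostly called. The list held 65 genes, of which 58 were tested, and 42 of these (72.4%) lay above the chemosensory background, compared with 52.2% of all genes. Above the other-tissue background were 19, where 15.9% of all genes were. The median margin was 1.5, where that of all genes was 0.55. The count was 27 at the 99th percentile threshold, where 4376 of all 18865 genes were called. At the 90th it was 48, where 12199 of all genes were called. The list was chosen with earlier results of these data known and was not tested as a set.

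Of 7 genes for proteases of the binding proteins or their inhibitors, 4 were called, which is near the share of 52.2% over all genes. The 4 were protease genes, but with so few genes the split by role is only described. Pappa, a secreted protease that cuts IGFBP-4 and IGFBP-5, gave 10.13, 10.14 and 10.43, and every array was above both thresholds. Its margin was 4.71 (mean 10.23 ± 0.17, SD, n = 3; limma, adjusted p = 1.35e-06). The serine protease gene Htra1 had 9.04 ± 0.05, and the membrane metalloprotease genes Adam9 and Adam12 had 8.61 ± 0.39 and 8.36 ± 0.26. All 3 passed both backgrounds. Pappa2, the relative of Pappa, had 5.01, 4.99 and 4.95 and was not called. Nor were the stanniocalcin genes, whose products block the proteases that Pappa and Pappa2 encode. Stc1 had 6.03, 4.17 and 5.86 and Stc2 5.02, 4.64 and 4.80. Stc1 was lowest on array 2.

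The growth hormone arm gave 6 calls of 8, where 52.2% of all genes were called. Ghr, the growth hormone receptor gene, had 10.13, 9.98 and 9.83, all above both thresholds, with a margin of 4.46 (limma, adjusted p = 1.79e-06). The transcription factor genes Stat5a and Stat5b had 8.55 ± 0.37 and 8.53 ± 0.16 and passed both backgrounds too. The feedback inhibitor gene Cish, with the smallest margin of the 8, had 5.19 ± 0.53 and was not called. Other feedback inhibitor genes of this arm gave mixed calls.

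Intracellular signalling genes were mostly called. Over all genes 52.2% passed the chemosensory background and 15.9% the other-tissue background. All 9 tested adaptor genes passed the chemosensory background, and 4 passed the other-tissue background. The docking protein gene Irs1 had 7.96 ± 0.08 and Irs2 7.29 ± 0.09 (SD, n = 3), of which Irs2 did not pass the stricter threshold. Gab1 had 8.73 ± 0.53, Shc1 8.22 ± 0.47 and Grb14, the adaptor with the smallest margin, 6.89 ± 0.14. Of 19 genes from PI3K to Akt and mTOR, 17 were called and 5 passed both thresholds, among them Gsk3b with 9.41 ± 0.15 and the regulatory subunit gene Pik3r1 with 9.33 ± 0.26. Pik3cb had 6.21, 4.66 and 5.64 and was not called. Of 5 Ras-MAPK genes 4 were called, with Braf at 7.77 ± 0.16, Mapk3 at 7.54 ± 0.36 and the uncalled Map2k2 at 5.90 ± 0.26. Map2k2 was called with the mean or the 75th percentile over probesets, at the 90th percentile threshold and without array 3. Insulin itself was represented by Ins2, with 5.42 ± 0.69, which was not called.

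**Figure D4:**
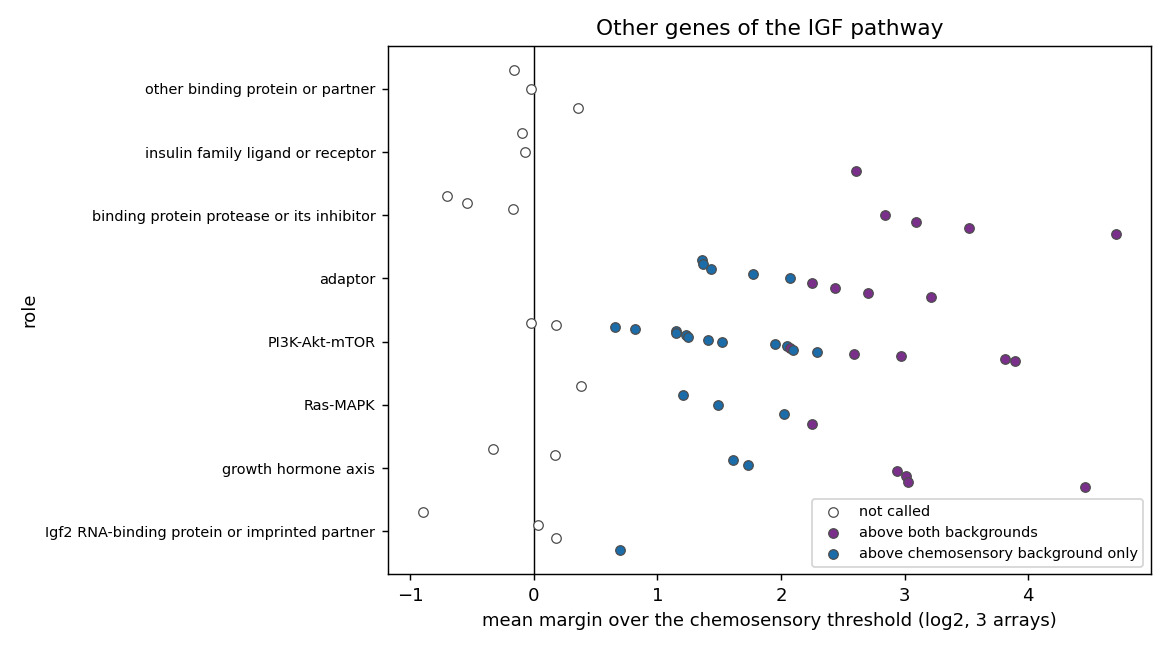
Mean margin over the chemosensory threshold (log2, 3 arrays) of 58 other genes of the IGF pathway by role. Adaptor genes all lie to the right of 0, while inhibitors and the relative of Pappa lie to its left and the 4 called genes of that role lie between 2.84 and 4.71.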

How the data were processed

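RNA of 3 samples was measured on Affymetrix arrays. Per the labels' protocols the RNA was amplified with the WT-Ovation Pico system and converted to sense strands. The deposited values are on a log2 scale, 1 per probeset. The submitters' processing notes name Affymetrix Expression Console 1.1 and RMA, which corrects background, normalizes between arrays and summarizes probes. RMA settings and the genome build behind the annotation are not stated there. Each array held 1256831 probesets, of which 318760 had 1 symbol, 6684 several and 931387 none. Symbols were updated through RefSeq synonyms (GRCm38.p6). Genes needed at least 4 probesets, which left 18865. All 10 members had a RefSeq promoter.

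An intercept-only model (limma 3.58.1, R 4.3.3) was fitted to each value minus the threshold of its array, with Benjamini-Hochberg adjustment over all genes or all probesets. The fit was tested on simulated data. The arrays correlated with Pearson's r of 0.901, 0.919 and 0.915 over all probesets, and none was a copy of another. The number of arrays limits the precision. The members and lists were chosen with earlier results of these data known.

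The named genes were the 10 members, 16 fixed pathway genes, per other role the 2 called genes with the largest margin and the 1 with the smallest, and per marker list the 2 with the largest margin, the 2 with the widest range and any at 0. For members with a range above 1, the 3 called genes with the closest array pattern were also named. In the text most of the marker genes are covered by counts. Pathway and marker genes without a value or with under 4 probesets were not analysed here. Alternatives were other summaries, thresholds, probeset minimums and variance models, and leaving out each array.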

Additional observations from a re-analysis of the deposited data

How the results depend on the processing

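The count of called members was 8 and ranged from 6 to 9 over the alternatives. It was 9 with the mean over probesets and at the 90th percentile, and 7 with genes of any probeset number. At the 99th percentile and with the other-tissue background it was 6. Over all 18865 genes the count was 9847 in the main setting, 10610 with the mean and 12199 at the 90th percentile. With genes of any probeset number it was 7417 of 22103. Leaving out 1 array gave 8 each time, and 42 to 43 for the other pathway genes and 8980 to 9507 for all genes. At the 99th percentile threshold the counts were 27 pathway genes, 4376 of all genes and 40 member probesets. For the probesets no count over the whole array is given here. With the other-tissue background there were 19 pathway genes and 2993 of all genes. Centring the arrays cannot change a call, since each threshold moves with its array. Among the members, Igf2 (margins of -0.26 at the 99th percentile and -0.71 with the other-tissue background) and Igf1r (-0.15, other-tissue) turned below the threshold. Among the named pathway genes, Grb14 (-0.18, other-tissue) and Igf2bp2 (-0.39 and -0.84) did so too. Called pathway genes that are not named here also lay below the other-tissue threshold. These margins fell because those thresholds are higher. Of 140 member margins compared, 133 kept their call or their lack of one. This total includes the centred arrays and the setting without probesets at 0, of which the members had none, and both left every member margin as it was. The rule of every array above the threshold reused the main margins. The total therefore overstates how often a call was put to a test. The signal of probes over background, not depth, limits these calls. No paired analysis was possible because the arrays form 1 group.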

Other observations

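The genes whose pattern over the 3 arrays was closest to that of a wide-ranging member were found among 1662 called genes with a range above 1. For Igf1r they were Tm9sf4 (6.37, 7.19 and 7.88 on arrays 1, 2 and 3), Sh3bp5 (7.79, 8.65 and 9.26) and Zdhhc23 (5.62, 6.52 and 7.27), at Euclidean distances of 0.02, 0.04 and 0.09 between their deviations. For Igfbp3 they were Manea (7.86, 6.43 and 7.38), Alg3 (7.33, 5.93 and 6.92) and Plk4 (7.38, 5.86 and 6.95), at 0.04, 0.05 and 0.06. With 3 arrays many genes share a pattern: 29 genes lay within 0.25 of Igf1r and 89 within 0.25 of Igfbp3. The patterns of both members are those of the median over all their probesets. Over the called probesets alone array 3 was lowest for both, with medians of 8.71 for Igf1r and 9.86 for Igfbp3.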
